A study of Mus musculus with 2 samples.

Results

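A set of 10 genes used to recognise dendritic cells was followed in RNA from cultured mouse pro-B cells whose gene for the histone methyltransferase SETDB1 was undeleted or deleted. The genes were Siglech, Ccr9, Klk1, Clec10a, Tcf4, Flt3, Runx2, Pacsin1, Itgax and Zbtb46. They are 10 of the 36980 genes whose transcripts could be given a symbol. They were found by matching each transcript identifier of the deposited expression table to its gene in GENCODE M21, which placed 65 of 89571 named transcripts on the 10 genes, low values included. For each gene, the transcript with the highest mean over both libraries gave the gene's value.

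The study sequenced ribosome-depleted total RNA from 2 cultures. The Setdb1 C/C culture carried undeleted Setdb1 alleles and the Setdb1 Δ/Δ culture carried deleted ones, and both carried a bcl2 transgene. Pro-B cells, the bone marrow precursors of B lymphocytes, had been sorted from marrow and grown for 4 days with IL-7 at 5 ng/µl. The age, strain and number of the donor animals, the way Setdb1 was deleted and the promoter of the transgene are not stated by the labels. Each group had 1 library, so no difference below has a replicate check, no test across replicates was possible, and every comparison is between these 2 libraries.

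Values are RPKM, reads for each kilobase of a transcript after scaling for depth. The libraries held 170.7 M (C/C) and 193.1 M (Δ/Δ) reads, M for mega, as recovered from the spacing of the RPKM values. Intervals in this text are exact 95% intervals that cover counting error only, with 2 reads taken as 1 fragment. Setdb1 itself was at 17.0 RPKM in C/C against 12.6 RPKM in Δ/Δ. The value covers the whole transcript, and which exons were deleted is not stated by the labels, so it checks the deletion only in part. The libraries also differed in sex markers. Xist, the RNA that coats the inactive X chromosome, was at 0.094 RPKM in C/C against 23.7 RPKM in Δ/Δ, and the Y-linked gene Ddx3y measured 10.2 and 0.009 RPKM. Genotype and sex therefore cannot be told apart for any gene here. All 13 listed marker genes of the pro-B stage reached 1 RPKM in both libraries, and their RPKM summed to 5095 in C/C and 4282 in Δ/Δ. By the size rule explained below, 4 of them were lower: Rag1 (27.3 and 6.64 RPKM), Cd79a (548 and 153 RPKM), Pax5 (201 and 97.5 RPKM) and Cd79b (1372 and 651 RPKM). The 1 higher was Vpreb2 (421 and 894 RPKM). Over all genes that reached 1 RPKM in either library, 6.28% were higher and 6.66% lower.

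Dendritic cells take up antigen and present it to T cells. Plasmacytoid dendritic cells, the subset specialised in secreting type I interferon after sensing viral nucleic acid, share several genes with B cell precursors and depend on the E protein transcription factor TCF4. Conventional dendritic cells are marked by the transcription factor ZBTB46. Both subsets arise from progenitors that carry the receptor FLT3. Several of the 10 genes are also used outside dendritic cells: Itgax and Clec10a in macrophages, Ccr9 in thymocytes and gut-homing lymphocytes, Runx2 in bone-forming cells, Pacsin1 in neurons and Tcf4 in B lineage cells.

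Of the 10 genes, 8 had at least 2 times their C/C level in Δ/Δ, and all 8 were near or below 1 RPKM in C/C. The same held for 10.7% of 13807 nuclear protein-coding genes with at least 20 reads. Among those under 1 RPKM in C/C the share was 31.3%. Klk1 differed most, at 38.9 times its C/C level, and Siglech, Ccr9, Clec10a, Itgax and Pacsin1 were 3.66 to 16.5 times their C/C level. Runx2 was at 3.12 times and Flt3 at 2.02 times. Tcf4 was abundant in both libraries and stood at 1.25 times. Zbtb46 was the single gene of the 10 whose value was lower in Δ/Δ. In RNA from a whole culture, fewer cells of a type and less RNA per cell cannot be told apart, here or for any gene below.

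**Figure D1:**
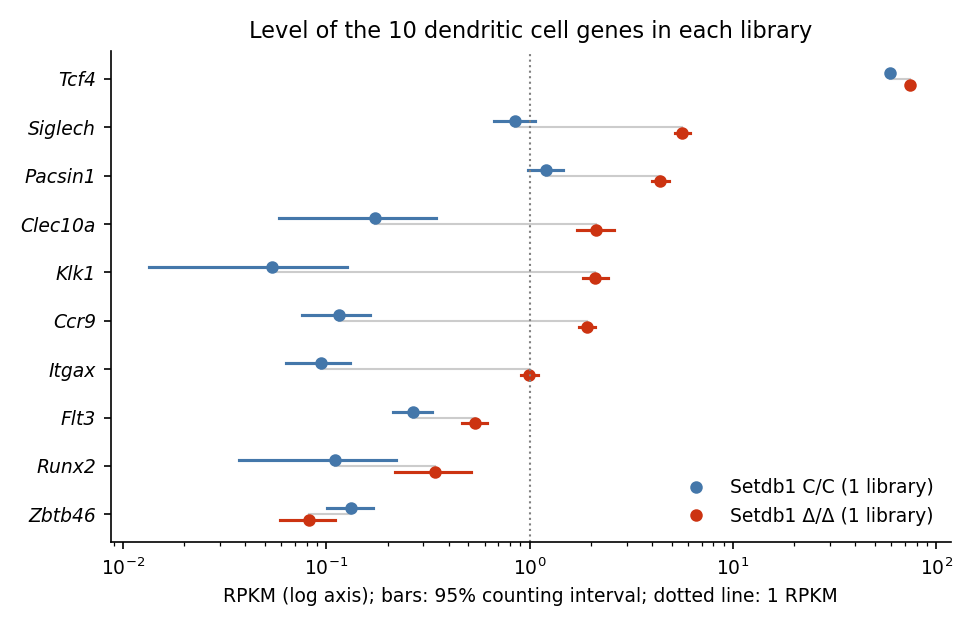
RPKM of each of the 10 genes in the C/C library (blue) and the Δ/Δ library (red) on a log axis, with 95% counting intervals as bars and 1 library per group. Tcf4 lies far above the others at 59.0 and 74.0 RPKM, while Siglech, Pacsin1, Clec10a, Klk1 and Ccr9 cross the dotted line at 1 RPKM or stand further above it in Δ/Δ.

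Promoter sequence was compared because Siglech, Ccr9, Klk1 and Itgax were below 1 RPKM in C/C and 6.64 to 38.9 times as high in Δ/Δ. RefSeq (GRCm38.p6) gave a promoter for 8 of the 10 genes, and Clec10a and Tcf4 had no entry. E proteins such as TCF4 bind E boxes, so the 250 bases before the start are shown for these 4 genes, 5′ to 3′ on the plus strand. The windows are chr7:55767934-55768183 for Siglech, chr9:123766961-123767210 for Ccr9, chr7:44225110-44225359 for Klk1 and chr7:128129300-128129549 for Itgax. Capitals mark E boxes of the letters CAGGTG, of CAGCTG or of CATCTG, on either strand, and Itgax holds none.
Siglech: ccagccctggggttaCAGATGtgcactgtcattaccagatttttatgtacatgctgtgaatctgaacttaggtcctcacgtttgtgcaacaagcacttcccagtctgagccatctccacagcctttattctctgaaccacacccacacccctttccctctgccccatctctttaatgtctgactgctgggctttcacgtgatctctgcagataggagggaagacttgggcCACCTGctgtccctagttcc
Ccr9: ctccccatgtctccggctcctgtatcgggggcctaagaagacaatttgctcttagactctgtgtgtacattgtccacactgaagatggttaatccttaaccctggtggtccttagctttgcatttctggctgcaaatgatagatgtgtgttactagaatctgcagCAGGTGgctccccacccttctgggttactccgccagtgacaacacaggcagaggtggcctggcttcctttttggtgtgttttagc
Klk1: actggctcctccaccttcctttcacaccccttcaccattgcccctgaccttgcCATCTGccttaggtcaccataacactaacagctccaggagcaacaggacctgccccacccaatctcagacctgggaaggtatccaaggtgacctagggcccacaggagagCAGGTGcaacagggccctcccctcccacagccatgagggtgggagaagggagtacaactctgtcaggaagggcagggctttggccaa
Itgax: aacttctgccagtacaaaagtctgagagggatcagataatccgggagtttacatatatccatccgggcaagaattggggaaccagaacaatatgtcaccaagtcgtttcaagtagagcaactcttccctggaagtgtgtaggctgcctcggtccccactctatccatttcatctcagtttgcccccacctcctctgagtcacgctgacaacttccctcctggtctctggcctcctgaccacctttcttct

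The surface receptors come first. Siglech encodes Siglec-H, a sialic acid-binding receptor used to identify mouse plasmacytoid dendritic cells. Siglech (ENSMUSG00000051504, GRCm38 chr7:55768178-55778925, plus strand) was at 0.850 RPKM in C/C against 5.64 RPKM in Δ/Δ, from 154 and 1157 reads. The Δ/Δ level was 6.64 times the C/C level (interval 5.22 to 8.53). In C/C 50.7% of nuclear protein-coding genes lay below that level, and in Δ/Δ 64.6% did. All 8 listed Siglech transcripts, which share most of their exons and reads, were higher in Δ/Δ, by 6.60 to 8.27 times. Siglec-H signals through the adaptor DAP12, encoded by Tyrobp, which was at 9.73 RPKM in C/C against 21.01 RPKM in Δ/Δ. The related adaptor gene Hcst measured 2.29 and 15.7 RPKM. The B cell members of the same receptor family went the other way. Cd22 measured 60.7 and 16.5 RPKM, and Siglecg 141 and 51.3 RPKM. Of the low relatives, Cd33 (28 and 151 reads), Siglece (4 and 38 reads) and Siglecf (3 and 19 reads) were higher and Mag (26 and 14 reads) lower. By the read density rule explained below, 5 of the 10 listed relatives and adaptors were higher and 3 lower. Over all genes 10.7% were higher and 9.97% lower, and of genes under 1 RPKM in C/C 31.3% were higher.

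Ccr9 encodes the receptor for the chemokine CCL25 and marks mature plasmacytoid dendritic cells. Ccr9 (ENSMUSG00000029530, chr9:123678439-123784330, plus strand) was at 0.116 RPKM in C/C against 1.92 RPKM in Δ/Δ, from 57 and 1068 reads, a ratio of 16.5 (interval 11.5 to 25.6). Its 5 listed transcripts had ratios of 16.5 to 19.2, among them one that starts far upstream of the others. That upstream transcript spans Lztfl1 on the opposite strand, and the library kit does not mark strand, so reads of the overlapping stretch cannot be told apart. Lztfl1 was at 6.44 and 9.08 RPKM. The ligand gene Ccl25 measured 2.19 and 1.81 RPKM. Among 20 genes of chemokine receptors and this ligand, 7 reached 1 RPKM in either library. By the size rule explained below 1 of these was higher, Ccr2 (0.125 and 1.20 RPKM), a receptor of monocytes. Ccr2 reached 1 RPKM in Δ/Δ alone and so had to be higher there. The 2 lower were Ccr7 (36.5 and 11.2 RPKM) and Cxcr4 (315 and 110 RPKM), which guide lymphocytes to lymph nodes and within the marrow. Over all genes that reached 1 RPKM, 6.28% were higher and 6.66% lower. By the read density rule 6 of 16 were higher and 4 lower. Over all genes 10.7% were higher and 9.97% lower, and of genes under 1 RPKM in C/C 31.3% were higher.

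Clec10a encodes a C-type lectin that binds galactose-type sugars, and is found on dendritic cells and macrophages. Clec10a (ENSMUSG00000000318, chr11:70156197-70170834, plus strand) is represented by an intron-retaining transcript of 441 bases, which was at 0.173 RPKM in C/C against 2.12 RPKM in Δ/Δ (13 and 181 reads, ratio 12.3, interval 5.86 to 37.1). The full-length coding transcript ENSMUST00000102571 measured 0.071 and 1.17 RPKM, from 18 and 338 reads, a ratio of 16.5 (interval 8.54 to 36.9). All 10 listed transcripts were higher in Δ/Δ. Its neighbour and closest relative Mgl2 had 3 reads in C/C and 48 reads in Δ/Δ, a ratio of 14.0 with a wide interval of 2.63 to 92.6. Reads can be shared between these similar genes.

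Other C-type lectins went mostly the same way. Of 20 on the list, 8 reached 1 RPKM, and 6 of these were higher and 0 lower by the size rule. Over all genes that reached 1 RPKM, 6.28% were higher and 6.66% lower. Each of the 6 reached 1 RPKM in Δ/Δ alone and so had to be higher there. The other 2, Clec2d (161 and 122 RPKM) and Clec2i (8.86 and 5.04 RPKM), had lower values in Δ/Δ. By the read density rule 13 of 16 were higher and 1 lower, Clec2g (35 and 8 reads). Over all genes 10.7% were higher and 9.97% lower, and of genes under 1 RPKM in C/C 31.3% were higher. Clec7a, the β-glucan receptor Dectin-1 of myeloid cells, was at 0.057 RPKM in C/C against 4.02 RPKM in Δ/Δ. Clec12a (0.408 and 3.11 RPKM), Clec4d (0.206 and 2.12 RPKM) and Clec4a3 (0.020 and 1.48 RPKM) showed the same direction. Clec9a, the lectin that recognises dead cells and marks the cross-presenting subset of conventional dendritic cells, was listed at 0 in C/C and at 0.081 RPKM in Δ/Δ.

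Itgax encodes CD11c, the integrin chain most often used to gate dendritic cells. Itgax (ENSMUSG00000030789, chr7:128129547-128150657, plus strand) was at 0.094 RPKM in C/C against 0.997 RPKM in Δ/Δ, from 65 and 779 reads on its single listed transcript. The ratio was 10.6 (interval 7.50 to 16.0), although the gene stayed just under 1 RPKM. Its partner chain Itgb2 was abundant and close in both libraries, at 30.2 and 28.8 RPKM. The neighbouring integrin gene Itgam, which encodes CD11b, measured 2.01 and 2.75 RPKM, and Itgal, which encodes the lymphocyte integrin chain CD11a, measured 2.02 and 6.10 RPKM.

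Flt3 encodes the receptor tyrosine kinase that drives dendritic cell development from early progenitors. Flt3 (ENSMUSG00000042817, chr5:147330741-147400489, minus strand) was at 0.266 RPKM in C/C against 0.538 RPKM in Δ/Δ, from 166 and 380 reads. The ratio of 2.02 had an interval of 1.56 to 2.65. A processed transcript that ends within the gene, ENSMUST00000110549, measured 0.028 and 0.160 RPKM. Flt3l, which encodes the ligand, was lower in Δ/Δ, at 7.75 and 1.40 RPKM (5.55-fold lower). Among the related receptors, Kit measured 4.42 and 2.24 RPKM and Csf1r, the macrophage growth factor receptor, 4.04 and 7.17 RPKM. Csf2rb2, a β chain of the IL-3 receptor, measured 1.31 and 6.17 RPKM and was the one higher gene by the size rule among the 6 measured genes of this list. Csf2rb measured 20.2 and 37.2 RPKM.

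Klk1, a tissue kallikrein that cleaves kininogen and is transcribed in plasmacytoid dendritic cells, was the gene with the widest gap. Klk1 (ENSMUSG00000063903, chr7:44225360-44229618, plus strand) was at 0.054 RPKM in C/C, from 9 reads, against 2.10 RPKM in Δ/Δ, from 387 reads. The ratio was 38.9 (interval 16.5 to 159). Of 25 other kallikrein genes 18 were listed at 0 in both libraries. Klk8, a serine protease of brain and skin, was the single measured one, at 3.77 and 1.73 RPKM. The near-identical copies Klk1b27 (0 and 56 reads) and Klk1b11 (1 and 43 reads) had reads almost only in Δ/Δ, and reads of Klk1 can be placed on such copies.

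Pacsin1 encodes a membrane-bending adaptor of endocytosis that in mice is used for interferon production by plasmacytoid dendritic cells. Pacsin1 (ENSMUSG00000040276, chr17:27655509-27711482, plus strand) was at 1.20 RPKM in C/C against 4.39 RPKM in Δ/Δ, from 199 and 823 reads, a ratio of 3.66 (interval 2.92 to 4.58). The 4 coding transcripts, which begin at 3 separate places, had ratios of 3.50 to 3.98. A short processed transcript at the middle start, ENSMUST00000155259, was listed at 0 in C/C and had 36 reads in Δ/Δ. Its relative Pacsin2 measured 28.2 and 40.2 RPKM, and Pacsin3 1.57 and 0.709 RPKM.

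**Figure D2:**
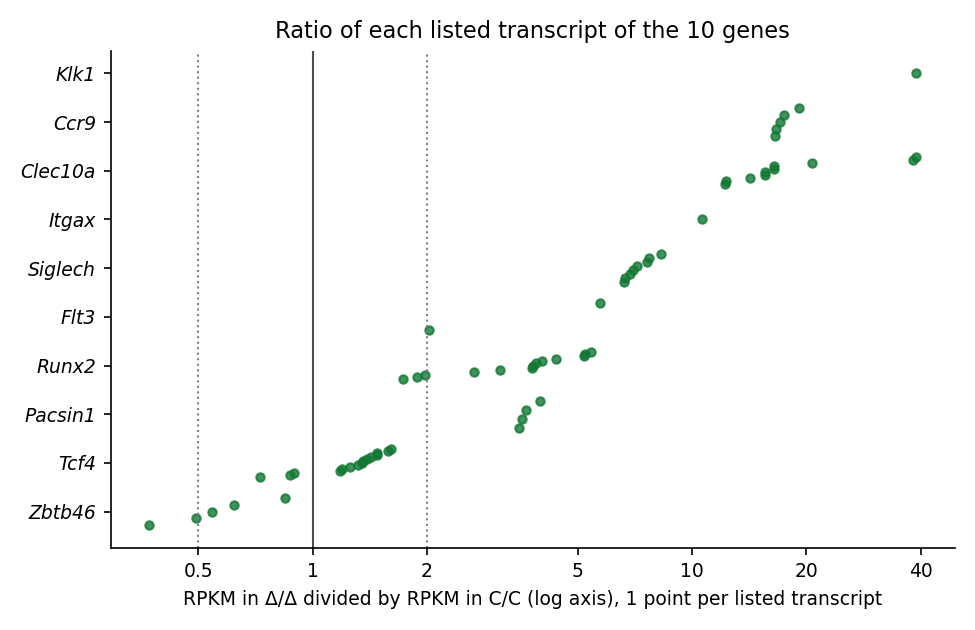
RPKM in Δ/Δ divided by RPKM in C/C (log axis) for each listed transcript of the 10 genes, 1 point per transcript and without the Pacsin1 transcript listed at 0 in C/C. Transcripts of Klk1, Ccr9, Clec10a, Itgax and Siglech lie at 6.60 or above, those of Tcf4 lie on both sides of 1 and those of Zbtb46 lie below 1.

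The 3 transcription factor genes did not move alike. Tcf4, which encodes the E protein E2-2, was the most abundant of the 10 genes. Tcf4 (ENSMUSG00000053477, plus strand) was at 59.0 RPKM in C/C against 74.0 RPKM in Δ/Δ, from 6232 and 8848 reads, a ratio of 1.25 (interval 1.20 to 1.31). Tcf4 has many transcripts with several starts, and their ratios varied along the gene. Of the 15 listed, 3 spliced transcripts that cover only upstream exons had ratios below 1: ENSMUST00000128706 measured 4.06 and 3.64 RPKM (ratio 0.896, interval 0.807 to 0.995), ENSMUST00000155695 measured 6.10 and 5.32 RPKM (ratio 0.871, interval 0.758 to 1.001), and ENSMUST00000125154 measured 8.53 and 6.19 RPKM (ratio 0.726, interval 0.596 to 0.876). The other 12 transcripts had ratios of 1.18 to 1.61, among them an intron-retaining one in the upstream part, ENSMUST00000126946, at 1.20. The highest ratio belonged to an intron-retaining transcript at the 3′ end. Centring the libraries on the median gene put these 3 ratios at 0.956 (interval 0.861 to 1.06), 0.930 (0.809 to 1.07) and 0.775 (0.636 to 0.935), so that only the last stayed below 1 beyond counting error. Transcripts share exons and the reads on them, so the ratios describe stretches of the gene, not separate RNA molecules.

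**Figure D3:**
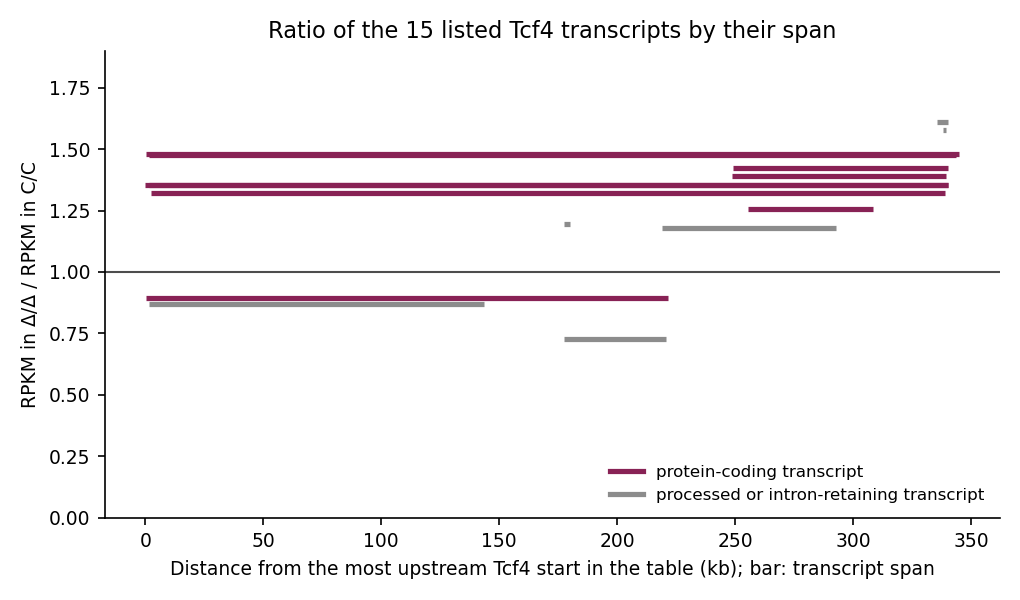
Ratio of RPKM in Δ/Δ to RPKM in C/C for the 15 listed Tcf4 transcripts, each drawn as a bar from its first to its last base in kb from the most upstream start. The 3 bars below 1 end before the 3′ part of the gene, and the bars that reach the 3′ end lie between 1.32 and 1.61.

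No gene of E proteins or their inhibitors, Tcf4 included, was higher by the size rule. Tcf3, which encodes the E protein E2A of B cell development, was at 375 RPKM in C/C against 216 RPKM in Δ/Δ, and Tcf12, which encodes HEB, 25.7 RPKM in both. Id2, an inhibitor that favours conventional over plasmacytoid dendritic cells, was at 1.14 and 1.55 RPKM, a ratio of 1.35 (interval 1.07 to 1.71). Id3 (66.7 and 26.6 RPKM) and Id1 (1.46 and 0.432 RPKM) were lower by the size rule, and 6 of the 8 measured genes of this list passed in neither direction. Under centring, 1 of these 2 calls was lost. Cbfa2t2, a co-repressor gene, measured 11.2 and 8.38 RPKM.

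Runx2 encodes a RUNT domain factor that acts in plasmacytoid dendritic cells on their exit from the marrow. Runx2 (ENSMUSG00000039153, chr17:44495987-44814797, minus strand) was at 0.110 RPKM in C/C against 0.343 RPKM in Δ/Δ, from 13 and 46 reads, a ratio of 3.12 (interval 1.34 to 10.2). The longest transcripts gave larger ratios on more reads, with 24 and 144 reads on ENSMUST00000113572 (ratio 5.23, interval 2.86 to 10.7). The transcript confined to the distal start, ENSMUST00000161489, had 1 read in C/C and 2 reads in Δ/Δ. The overlapping gene Supt3 lies on the opposite strand and measured 2.47 and 3.57 RPKM, so stray reads from it cannot be told apart from Runx2 reads. Runx1 (13.0 and 11.1 RPKM), Runx3 (2.47 and 2.08 RPKM) and the shared partner Cbfb (63.8 and 52.4 RPKM) all stood above Runx2 and within the size rule.

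Zbtb46 encodes a zinc finger repressor that separates conventional dendritic cells from other myeloid cells. Zbtb46 (ENSMUSG00000027583, chr2:181387762-181459426, minus strand) was at 0.132 RPKM in C/C against 0.082 RPKM in Δ/Δ, from 120 and 84 reads. The ratio was 0.621 (interval 0.407 to 0.933). All 5 listed transcripts, which overlap one another, had lower values in Δ/Δ, but no interval other than the one given excluded 1. ENSMUST00000155535 had 1 read in each library. Among relatives with the same type of domain, Zbtb16, which encodes PLZF of innate-like lymphocytes, was under the filter but had 48 and 463 reads, a ratio of 8.53 (interval 5.60 to 13.6). Bcl6 measured 2.88 and 1.15 RPKM, Zbtb7b 6.22 and 3.60 RPKM, Zbtb7a 20.6 and 13.1 RPKM, and Zbtb17 33.3 and 22.0 RPKM. Bcl6 alone of 6 measured relatives passed the size rule, and did not after centring.

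The order of the levels changed between the libraries. In C/C Tcf4 was followed by Pacsin1 and Siglech, whose intervals overlap (0.981 to 1.47 and 0.671 to 1.06 RPKM), and the other 7 genes lay at or below 0.266 RPKM. In Δ/Δ Siglech came second (5.19 to 6.11 RPKM) above Pacsin1 (3.98 to 4.83 RPKM), and the next 3, Clec10a, Klk1 and Ccr9, had overlapping intervals (1.70 to 2.60, 1.82 to 2.42 and 1.76 to 2.08 RPKM). Zbtb46 ranked last in Δ/Δ and above Ccr9, Runx2, Itgax and Klk1 in C/C, by values alone. The 9 genes other than Tcf4 summed to 2.99 RPKM in C/C against 18.1 RPKM in Δ/Δ.

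To set the genes against all others, genes that reached 1 RPKM in either library were called measured, and a gene was called higher or lower when log2((Δ/Δ + 0.5)/(C/C + 0.5)) was at least 1 or at most -1. On that scale, which understates differences of low genes, Klk1 stood at 2.23, Siglech at 2.19, Ccr9 at 1.97, Clec10a at 1.96 and Pacsin1 at 1.52, and Tcf4 at 0.32. These 6 genes were measured, 5 were higher and 0 were lower, against 6.28% of 12556 measured genes higher and 6.66% lower. The median of the 6 was 1.97 and that of all measured genes -0.09, while the 541 measured genes under 1 RPKM in C/C had a median of 1.30, with 338 of them higher. Of the 5, all but Pacsin1, that is 4, passed the filter through Δ/Δ alone and so had to differ, and nothing is read from that count or median. Just outside the filter lay Itgax, with a log2 value of 1.33. Runx2 (0.47), Flt3 (0.44) and Zbtb46 (-0.12) lay further below it.

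A second rule kept all 10 genes. It took nuclear protein-coding genes with at least 20 reads over both libraries and called a gene when its read density differed by 2-fold or more. By this rule 8 of the 10 genes were higher and 0 lower, with Flt3 at the edge, against 10.7% of 13807 genes higher and 9.97% lower. Low genes differ more often in this pair of libraries. Of 3442 such genes under 1 RPKM in C/C, 31.3% were at least 2-fold higher, and of the 8 members under 1 RPKM in C/C, 7 were. The exception was Zbtb46. These counts describe the 10 genes and are not a test.

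**Figure D4:**
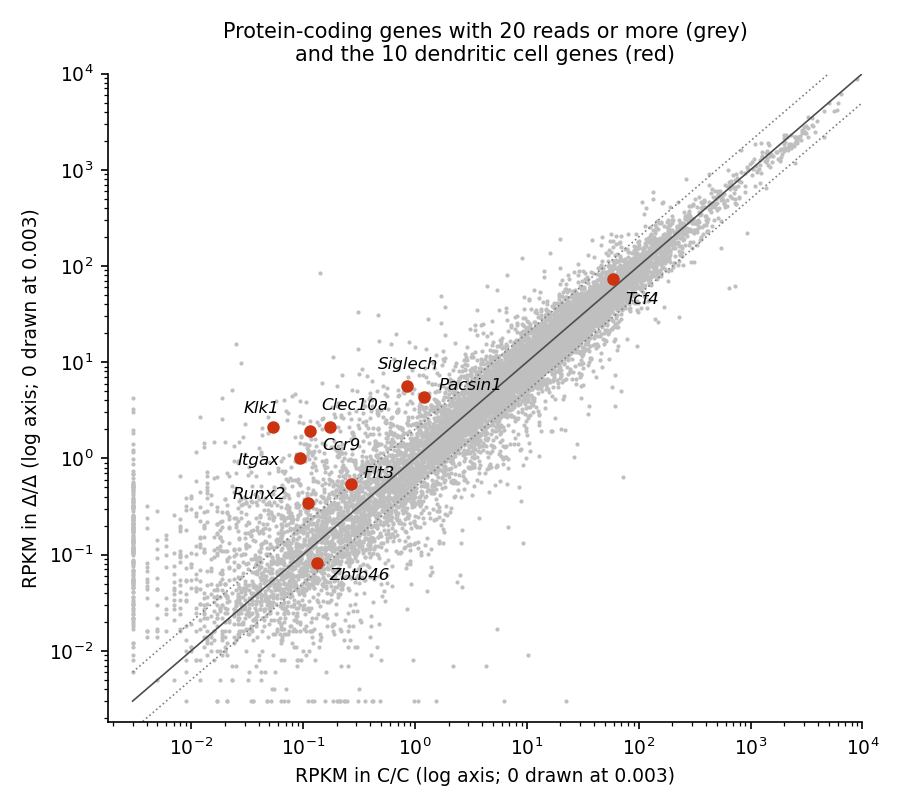
RPKM in Δ/Δ against RPKM in C/C on log axes for 13807 nuclear protein-coding genes with 20 reads or more (grey) and the 10 dendritic cell genes (red), with dotted lines at a 2-fold difference. Tcf4 sits near the diagonal, Zbtb46 below it, and the other 8 above the upper dotted line or, for Flt3 at 2.02, on it.

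Genes known from plasmacytoid dendritic cells, other than the 10, went both ways. Of 30 on the list 27 were measured, 9 were higher and 4 lower, with a median log2 value of -0.07. Over all measured genes 6.28% were higher and 6.66% lower. Tlr7, an endosomal receptor for viral RNA whose gene lies on the X chromosome, went from 1.01 RPKM in C/C to 14.4 in Δ/Δ, and Irf7, the master factor of interferon gene induction, 1.18 and 7.30 RPKM. Ly6d, which marks B cell and plasmacytoid progenitors, measured 643 and 58.6 RPKM, and Kmo, an enzyme of tryptophan breakdown, 12.9 and 2.88 RPKM. Spib (294 and 109 RPKM) and Tlr9 (2.68 and 0.714 RPKM) complete the 4 lower genes. Of the 30 genes 26 were already at 1 RPKM or more in C/C, and pro-B cells are known to transcribe several of them, such as Spib, Bcl11a, Irf8 and Ly6d.

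For genes of conventional dendritic cells, 13 of 30 on the list were measured, 0 were higher and 3 lower, and the median was -0.28. Over all measured genes 6.28% were higher and 6.66% lower. The count of the conventional list depends on the filter. By the read density rule 7 of 25 conventional genes were higher and 4 lower, beside 10 higher and 5 lower of 30 plasmacytoid genes. Over all genes 10.7% were higher and 9.97% lower, and of genes under 1 RPKM in C/C 31.3% were higher. The lists differ in level, since 13 of the 30 conventional and 26 of the 30 plasmacytoid genes reached 1 RPKM in C/C. The 3 conventional genes lower by the size rule were Cd83 (6.66 and 0.546 RPKM), Ccr7 and Relb (18.0 and 7.96 RPKM). These are genes of activated dendritic cells and of B cells. Esam (26 and 9 reads) was also lower by the read density rule. Sirpa, a marker of one conventional subset and of macrophages, measured 5.58 and 11.3 RPKM, with a log2 value of 0.96. The 3 defining genes of the cross-presenting subset that follow were chosen after their values were seen, and all were low: Xcr1 measured 0.132 and 0.081 RPKM, while Clec9a and Batf3 were listed at 0 in C/C and at 0.081 and 0.080 RPKM in Δ/Δ. Without the filter Cd209d (0.026 and 0.932 RPKM) was also higher. A difference between the plasmacytoid and conventional lists was not tested.

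Summed markers of macrophages or monocytes, neutrophils and erythroid cells were higher in the same library as most of the 10 genes. Of 10 macrophage or monocyte markers 8 were measured, 7 were higher and 0 lower, and their RPKM summed to 19.96 in C/C and 159.6 in Δ/Δ with none at 0 in either. Of the 8 measured, 4 passed the filter through Δ/Δ alone and so had to be higher there. For 9 neutrophil markers 6 were measured and 6 higher, 5 of them measured in Δ/Δ alone, and the sums were 6.98 and 97.4 RPKM, with Mpo and Elane at 0 in C/C. The 6 erythroid markers summed to 7.12 and 68.3 RPKM. Most of this came from Hbb-bs (3.60 and 34.5 RPKM), Hba-a1 (1.84 and 19.0 RPKM) and Hba-a2 (1.25 and 13.7 RPKM). By the read density rule 5 of the 6 were higher and 1 lower, Klf1 (56 and 29 reads). The 8 T cell markers summed to 44.4 and 70.7 RPKM, with Cd3e at 0 in C/C. Without Thy1 (23.7 and 55.7 RPKM) the other 7 summed to 20.7 and 14.97 RPKM, most of it from Lck (18.4 and 10.5 RPKM). By the read density rule 5 of 7 T cell markers were higher, among them Cd4 (7 and 138 reads) and Cd3d (9 and 109 reads). Zap70 (2.06 and 0.933 RPKM) was the 1 lower. Over all genes 10.7% were higher and 9.97% lower, and of genes under 1 RPKM in C/C 31.3% were higher. The 5 mast cell or basophil markers summed to 0.004 and 1.95 RPKM, with 4 at 0 in C/C. The 6 NK cell markers summed to 2.05 and 1.62 RPKM, with Ncr1 and Gzma at 0 in both. The part of such cells in the values of the 10 genes was not tested. Csf1r, Ccr2 and Ly6c2 stand in the macrophage or monocyte list and also in lists described above or in the plasmacytoid list.

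**Figure D5:**
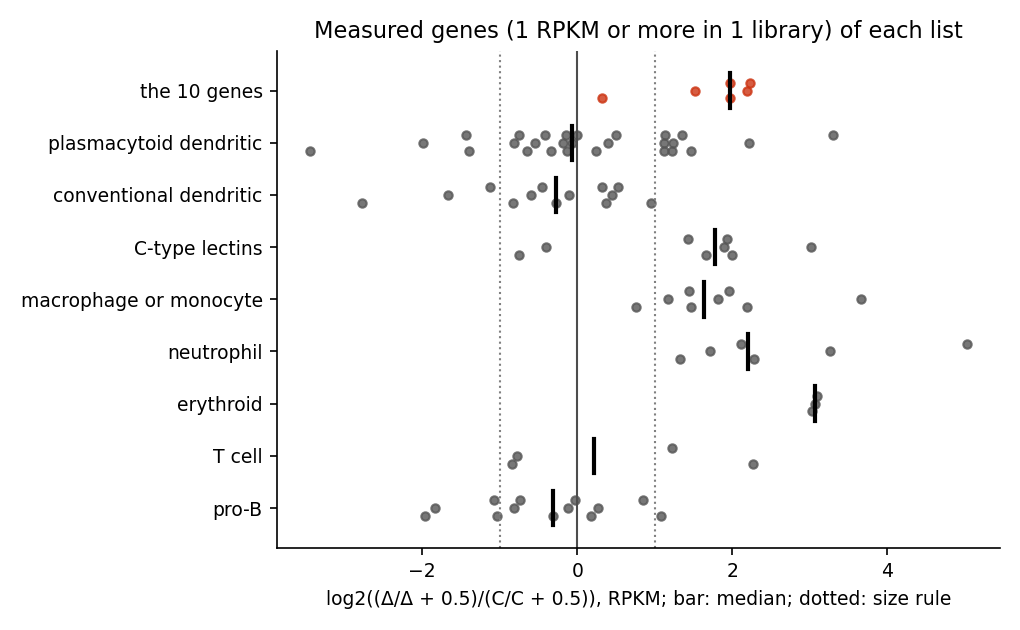
log2((Δ/Δ + 0.5)/(C/C + 0.5)) of each measured gene in the lists named at the left, with the median as a bar and the size rule as dotted lines. The 6 measured genes of the 10 have a median of 1.97, the plasmacytoid list spreads on both sides of 0 around -0.07, and macrophage, neutrophil and erythroid markers lie mostly right of 1.

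None of the measured genes next to the 10 on the chromosomes passed the size rule. For each gene the 2 nearest listed protein-coding genes on either side were taken, a choice made after values had been seen. Of these 40 neighbours 19 were measured, 0 were higher and 0 lower, and their median log2 value was -0.16. Over all measured genes 6.28% were higher and 6.66% lower, and with shares that low nothing is read from counts of 0 among 19. Fyco1, which lies 5.2 kb from Ccr9, measured 2.51 and 1.67 RPKM, and Tubgcp5, which lies 15.2 kb from Siglech, measured 8.36 and 10.3 RPKM. Itgam lies 11.1 kb from Itgax, and its ratio was 1.37 where that of Itgax was 10.6. Neighbours under the filter can still differ, as Mgl2 did next to Clec10a, Cxcr6 next to Ccr9 (28 and 115 reads) and Rab27b next to Tcf4 (0 and 43 reads). Enpp4, a measured neighbour of Runx2, was 2.18-fold lower by plain ratio (1.65 and 0.758 RPKM).

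Among the promoters, 4 of which are printed above, the E box CAGGTG occurred, on either strand, in the promoters of Siglech, Ccr9, Klk1 and Zbtb46, 4 of 8, and in 17.2% of 32851 RefSeq promoters of the same length. It begins 20 bases before the start in Siglech, 85 in Ccr9 and 87 in Klk1. CATCTG occurred in 4 of 8 (Siglech, Klk1, Flt3 and Zbtb46; 14.4% of all) and CAGCTG in 0 of 8 (13.0%). The RUNX motif TGTGGT occurred in Siglech, Runx2 and Pacsin1 (14.0% of all promoters). The PU.1 motif GAGGAA (23.3%) and the interferon response motif of GAAA, any 2 bases and GAAA (2.98%) occurred in none of the 8. No matches in the 8 promoters overlapped each other. A match describes the sequence without showing that a factor binds there. The RefSeq windows of Zbtb46, Runx2 and Pacsin1 lie at other starts than those of the transcripts whose values are given for these genes. The Zbtb46 window lies within the span of that gene's transcript, and both counts of 4 of 8 include it.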

How the data were processed

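The authors deposited 1 table with 1 RPKM value per Ensembl transcript and library, rounded to 3 decimals. Its column Wt was taken as C/C and its column Del as Δ/Δ. TopHat2 2.0.9 and bedtools, with builds mm9 and mm10, are named in the submitters' processing notes. Its build, annotation release, strand setting and handling of shared reads: not given in the sources used here. Per the labels' protocols, libraries were 101 bp paired-end.

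Transcripts were matched to GENCODE M21 (GRCm38), which named 89571 of 93615 (95.7%). The other 4044 were not used. Coordinates are those of GRCm38, since the table holds none. Depth was found by searching for the read total at which RPKM times exonic length is a whole number. Of low values of transcripts of 100 to 800 bases, 97.1% (C/C) and 96.4% (Δ/Δ) were whole to within 0.1 read. More transcripts had 2 reads than 1 read, so 2 reads were taken as 1 fragment. These counts are reconstructions and entered no count model. Depth search and size rule were tested on simulated data. Python 3.11.15, pandas 2.3.3 and scipy 1.17.1 were used.

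Members, lists and rules were chosen with earlier results of these data known. The text names all 10 genes, their closest relatives and partners, and up to 4 genes per list with the largest absolute log2 value among measured genes. Others are marked or serve as checks. Alternatives were pseudocounts of 0.1 and 1, no filter or 5 RPKM, 2 scalings, 2 other transcript choices and a stricter size rule. No set test was run.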

Additional observations from a re-analysis of the deposited data

How the results depend on the processing

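No paired analysis was possible because each group had 1 library. Every member kept its direction under each alternative. Over the alternatives Ccr9 ran from 1.39 to 3.22, Klk1 from 1.56 to 3.84 and Itgax from 0.87 to 2.499 on the log2 scale. The count of 5 higher members fell to 1 at a filter of 5 RPKM and to 2 at a log2 threshold of 2, and their median was 2.81 with a pseudocount of 0.1 RPKM and 1.26 at 5 RPKM. Over all genes, 452 were higher and 510 lower at 5 RPKM, and 220 and 234 at the stricter threshold. The median of all genes was 0.00 without a filter or after centring and -0.014 when both libraries were set to a common sum that leaves out the 20 most abundant genes. The plasmacytoid list's median was -0.038 without a filter, 0.020 after centring, 0.0077 with the common sum and 0.13 with the longest transcript, so its sign is not stable, and 2 were higher and 1 lower at the stricter threshold. In the conventional list 1 gene was higher with a pseudocount of 0.1 RPKM, without a filter, after centring and with the common sum, 2 were higher with summed transcripts and 1 was lower at the stricter threshold. Its median was 0.087 without a filter, -0.37 at 5 RPKM, -0.19 after centring, -0.20 with the common sum and 0.14 with summed transcripts, so its sign is not stable either. Of the other values, 44 of the comparison lists moved and 215 did not, and 14 log2 values of members moved beyond their counting interval and 46 did not. Depth limits Runx2, Clec10a and Klk1 most, with 13, 13 and 9 reads in C/C. The read density counts, whose alternatives were chosen after seeing the data, moved by less than 1.5 times.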

Other observations

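Plasmacytoid dendritic cells are known as producers of interferon α after sensing viral nucleic acid. Of 13 Ifna genes listed, 12 were at 0 in both libraries, and Ifna13 had 2 reads in C/C and 6 reads in Δ/Δ. Ifnb1 was listed at 0 in both. These genes were looked at after the values of the 10 genes had been seen, and the presence of such cells was not tested.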
